A study of Mus musculus with 9 samples.

Results

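The genes described here encode the carboxylesterases (Ces) and the conjugating enzymes of drug and lipid metabolism in intestinal epithelial cells (IECs), namely the UDP-glucuronosyltransferases (Ugt1a, Ugt2a and Ugt2b), the sulfotransferases (Sult) and the glutathione S-transferases (Gsta, Gstm, Gstp, Gstt, Gsto, Gstk, Gstz and the membrane-bound Mgst). Members were chosen by symbol, as protein-coding genes of these families with at least 10 raw counts in 3 or more of the 9 libraries. In the mouse annotation 86 protein-coding symbols matched, 68 of them were in the count table of 29288 genes, and 57 passed the minimum and are the members. All 57 were also tested, and 51 of them had at least 10 counts in all 9 libraries. Ces1b, Ces1c, Ces3b, Ces4a, Sult2a1, Sult2a8, Sult4a1, Sult5a1, Ugt1a8, Ugt2b1 and Ugt2b38 were in the table but under the minimum, and the other 18 symbols were not in the count table.

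Carboxylesterases of the endoplasmic reticulum cleave ester and amide bonds in drugs and in neutral lipids. The conjugating enzymes then attach glucuronic acid, sulfate or glutathione, which makes a compound more soluble and ready for export. In the small intestine these enzymes are made mostly by absorptive enterocytes, where they form a first barrier to ingested chemicals and handle bile acids, steroids and lipid oxidation products.

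RNA was sequenced from crypt IECs of the proximal small intestine of female wild-type (WT) C57BL/6J mice, 3 per group and 1 mouse per library, and the methods give an age of 7 to 10 weeks for the study's animals. Control mice received PBS and were sampled at 18 h, 18h-αGal mice were sampled 18 h after an intraperitoneal injection of 2 µg of α-galactosylceramide (αGalCer), and 72h-αGal mice 72 h after the same injection. αGalCer is a glycolipid which, bound to CD1d, activates natural killer T (NKT) cells. IECs were sorted as live cells positive for EpCAM and negative for CD45, CD31 and Ter119. No group was treated with PBS for 72 h, so for the 72h-αGal mice the treatment and the time of sampling cannot be told apart, and both comparisons with control share the same 3 control libraries.

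The libraries held 8887861 to 32722293 counts, of which members took 0.222% to 0.483%. Epcam had 16279 to 22719 normalised counts (raw counts divided by 1 size factor per library) in the 9 libraries, and the brush border gene Vil1 9645 to 27837. Summed over 8 leukocyte markers the level was 97.9 to 185, against 88407 to 131795 for 6 markers of epithelial identity. Cd3e was at 0 in 5 libraries (up to 24.3) and Nkg7 at 0 in 8, whereas Ptprc (4.42 to 57.9), Itgam (11.7 to 69) and Cd79a (1.8 to 48.6) were above 0 in all 9. Over 5 hepatocyte markers the sum was 150 to 266, most of it Ttr (95.1 to 225), with Fgb at 0 in 8 libraries. Libraries of the same group differed in their enterocyte marker levels. The summed level of 20 enterocyte markers was 367214, 257167 and 670294 in control replicates 1, 2 and 3, 398430, 346814 and 531875 in the 18h-αGal mice, and 255451, 326573 and 177735 in the 72h-αGal mice. Control replicate 3, the smallest library and the one with the highest marker sum, had the highest value of the 3 controls for 41 of the 57 members, and 72h-αGal replicate 3, with the lowest marker sum, had the lowest value of its group for 40. These are bulk samples, in which fewer cells of a type and less RNA per cell cannot be told apart.

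The first comparison asked which members differed soon after NKT cell activation. At 18 h, 14 of the 57 members (24.6%) were lower than in control with an adjusted p under 0.05 (called) by the quasi-likelihood test of edgeR (Benjamini-Hochberg adjusted over all genes tested), against 2.69% of all 18933 genes tested. None was called higher in edgeR (0 of 57, against 3.27% of all genes). DESeq2 called 16 members, against 5.87% of all genes in either direction. An unadjusted edgeR p under 0.05 was found for 26 members (45.6%), against 20.8% of all genes tested. The 14 were Ces1d, Ces1e, Ces2b, Ces2g, Gsta4, Gstm1, Gstm7, Sult1d1, Ugt1a1, Ugt2a3, Ugt2b34, Ugt2b35, Ugt2b36 and Ugt2b5, and each had at least 10 counts in all 9 libraries. For 27 members (47.4%) all 18h-αGal libraries lay below all control libraries, against 12.3% of all genes, and for 0 members they all lay above, against 11.5%. The 27 include Gsta5, which had 10 counts in no 18h-αGal library and passed the minimum only through libraries of the other groups. The median log2 fold change of the members was -0.71, that of all genes tested -0.03. Of the 57 fitted values 46 (80.7%) were below 0, against 52.4% of all genes. The count of calls was 7 without 18h-αGal replicate 1, 7 without 18h-αGal replicate 2, 8 without control replicate 1 and 9 without control replicate 3. The same fits called 4.04%, 2.16%, 2.47% and 7.66% of all genes in either direction, against 5.96% with all 9 libraries.

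**Figure D1:**
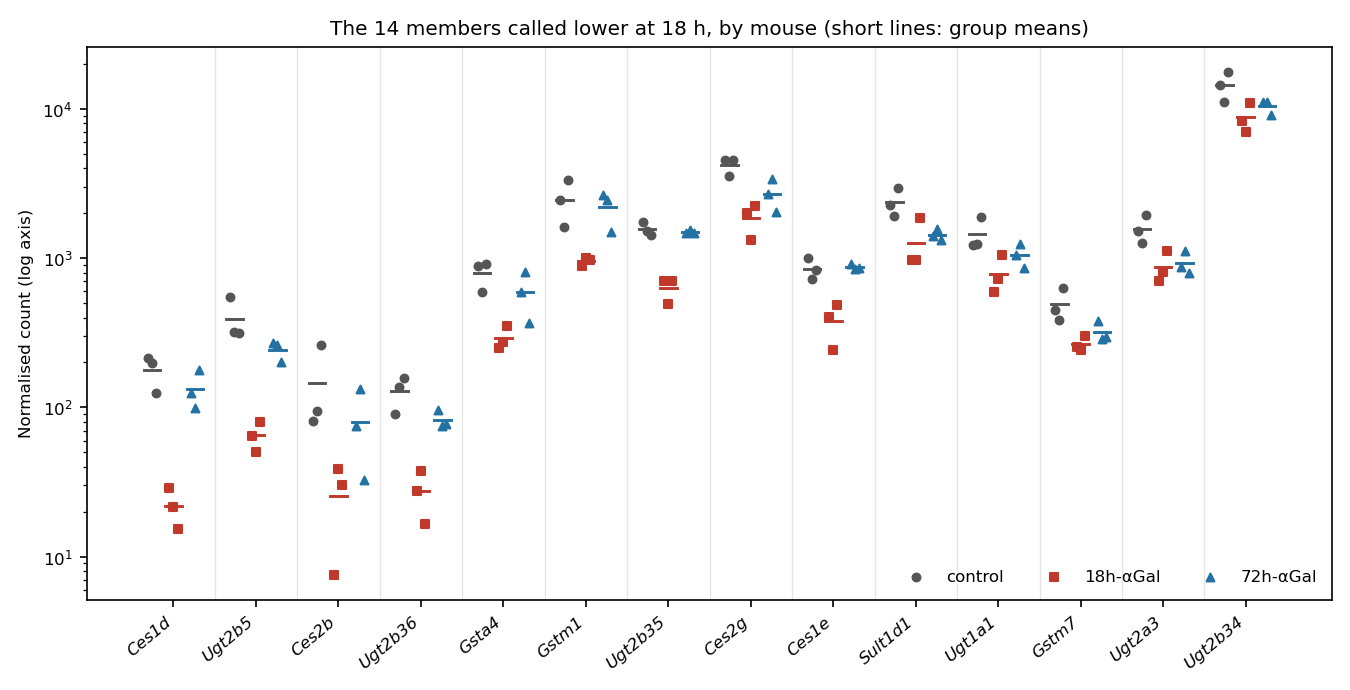
Normalised counts (log axis) of the 14 members called lower at 18 h, in each of the 9 mice. Circles are control, squares 18h-αGal and triangles 72h-αGal mice, short lines are group means, and for every gene the 3 squares lie below the 3 circles, while the triangles lie between or among them.

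The Ugt2 glucuronosyltransferases, which conjugate steroids, bile acids and drugs, were the only family in which each member was called at 18 h (5 of 5). The share called lower over all genes was 2.69%. In GRCm39 the 5 genes lie on chromosome 5 between 87037626 and 87485055, in the order Ugt2b34, Ugt2b35, Ugt2b36, Ugt2b5 and Ugt2a3. Because each of these genes fell at 18 h, the 250 bases before their RefSeq transcript starts are shown, 5′ to 3′ along the gene, at chr5:86906938-86907187 (minus strand) for Ugt2b34, chr5:87000610-87000859 (plus strand) for Ugt2b35, chr5:87092556-87092805 (minus strand) for Ugt2b36, chr5:87140341-87140590 (minus strand) for Ugt2b5 and chr5:87337196-87337445 (minus strand) for Ugt2a3 in GRCm38.p6. Capitals mark AGGTCA, the nuclear receptor half-site, found in Ugt2b35, Ugt2b36 and Ugt2b5.
Ugt2b34: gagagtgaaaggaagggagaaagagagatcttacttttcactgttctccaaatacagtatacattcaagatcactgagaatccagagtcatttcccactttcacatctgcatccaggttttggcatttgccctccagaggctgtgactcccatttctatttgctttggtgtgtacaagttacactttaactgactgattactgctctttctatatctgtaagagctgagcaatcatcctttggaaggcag
Ugt2b35: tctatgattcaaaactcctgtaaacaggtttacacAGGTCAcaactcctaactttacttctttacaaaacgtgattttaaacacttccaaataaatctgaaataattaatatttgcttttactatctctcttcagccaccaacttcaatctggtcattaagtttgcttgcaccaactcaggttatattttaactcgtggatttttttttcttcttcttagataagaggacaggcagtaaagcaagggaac
Ugt2b36: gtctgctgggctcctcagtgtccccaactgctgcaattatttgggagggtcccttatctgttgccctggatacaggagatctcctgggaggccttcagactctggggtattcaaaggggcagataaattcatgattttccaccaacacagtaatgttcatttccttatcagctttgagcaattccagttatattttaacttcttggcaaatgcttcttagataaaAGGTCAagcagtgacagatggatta
Ugt2b5: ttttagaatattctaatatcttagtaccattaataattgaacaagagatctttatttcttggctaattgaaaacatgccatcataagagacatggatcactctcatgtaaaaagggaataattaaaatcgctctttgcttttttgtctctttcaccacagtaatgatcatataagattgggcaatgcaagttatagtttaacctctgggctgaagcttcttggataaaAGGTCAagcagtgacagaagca
Ugt2a3: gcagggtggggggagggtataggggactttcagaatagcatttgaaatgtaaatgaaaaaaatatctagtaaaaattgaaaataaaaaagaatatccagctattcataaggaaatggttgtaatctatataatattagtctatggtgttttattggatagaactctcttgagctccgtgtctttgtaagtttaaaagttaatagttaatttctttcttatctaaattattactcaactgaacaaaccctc

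Both strands were searched. AGGTCA was present at positions -215 to -210 of Ugt2b35, -25 to -20 of Ugt2b36 and -22 to -17 of Ugt2b5, counted back from the base before the start. Ugt2b36 and Ugt2b5 shared a run of 24 bases around it, gataaaAGGTCAagcagtgacaga, at -31 to -8 and -28 to -5. Ugt2b35 and Ugt2b36 shared 14 bases, gttatattttaact, and the other 8 pairs of these windows shared runs of 7 to 10 bases. Of all 32851 RefSeq windows of this length 14% held AGGTCA, and of the 59 windows of 48 members 15.3% did. The CDX2 core CATAAA stood in 10.8% of all windows and 11.9% of member windows, the antioxidant response element TGACNNNGC in 10.2% and 6.78%, and the gamma-activated site TTCNNNGAA in 7.02% and 5.08%. CAAAGTCCA, an HNF4A core, stood in 0.384% of all windows and in 0 of the 59. Such letter matches are descriptions of the sequence and carry no measurement of binding.

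Ugt2b5 (ENSMUSG00000054630) had 546, 319 and 316 normalised counts in control replicates 1, 2 and 3, 64.3, 50.3 and 80 in 18h-αGal and 270, 262 and 201 in 72h-αGal mice. The 3 groups did not overlap, with the 18 h libraries lowest. It fell to 16.4% of control at 18 h (log2 fold change -2.61 ± 0.30 SE with n = 3 mice per group, edgeR adjusted p of 0.000175). Ugt2b5 shares 28.8% of its 50-base words with Ugt2b38, so part of its reads cannot be assigned with certainty. Ugt2b36 (ENSMUSG00000070704) had 89.9, 138 and 157 normalised counts in control, 27.7, 37.7 and 16.6 in 18h-αGal and 96.1, 74.6 and 77.3 in 72h-αGal mice. It fell to 22% of control at 18 h (log2 fold change -2.19 ± 0.42, edgeR adjusted p of 0.0067), and its 72 h libraries overlapped the controls.

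Ugt2b35 (ENSMUSG00000035811) had 1755, 1532 and 1438 normalised counts in control, 704, 490 and 700 in 18h-αGal and 1471, 1537 and 1483 in 72h-αGal mice. The control values of this gene differed by 1.22-fold at most, a narrow spread among the members, and the 18h-αGal values lay far below them. It fell to 40.2% of control at 18 h (log2 fold change -1.31 ± 0.15, edgeR adjusted p of 0.000227). Ugt2b34 (ENSMUSG00000029260), with a mean of 2600 normalised counts per kb of exon the most abundant Ugt member per length, had 14569, 11218 and 17674 normalised counts in control, 8333, 7016 and 11016 in 18h-αGal and 11183, 11185 and 9120 in 72h-αGal mice. It fell to 61% of control at 18 h (log2 fold change -0.71 ± 0.18, edgeR adjusted p of 0.0306). Ugt2a3 (ENSMUSG00000035780) had 1525, 1262 and 1949 normalised counts in control, 706, 808 and 1119 in 18h-αGal and 873, 1118 and 798 in 72h-αGal mice. It fell to 55.9% of control at 18 h (log2 fold change -0.84 ± 0.19, edgeR adjusted p of 0.0198), and its 72 h libraries also lay below all controls. The Ugt2a3 call was lost without control replicate 1, 18h-αGal replicate 1 or 18h-αGal replicate 2 (edgeR adjusted p of 0.0674, 0.0793 and 0.101). That of Ugt2b34 was lost without control replicate 1 or 3, 18h-αGal replicate 1 or 2, or 72h-αGal replicate 1 (edgeR adjusted p of 0.101, 0.0631, 0.0962, 0.125 and 0.052).

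Summed over the 5 Ugt2 members, the level was 18484, 14469 and 21534 normalised counts in control, 9835, 8403 and 12931 in 18h-αGal and 13893, 14177 and 11678 in 72h-αGal mice. Each 18 h sum lay below each control sum. The enterocyte marker sums of the same 18h-αGal libraries, 346814 to 531875, lay within the control range of 257167 to 670294, with 0 of 20 markers called by edgeR and a median log2 fold change of -0.03. Stem cell markers had lower sums at 18 h (15695 to 46631) than in control (48893 to 92072), with a median log2 fold change of -1.06 and 0 of 10 called. Sums of 9 enteroendocrine markers were higher at 18 h (12668 to 20335) than in control (8537 to 11806), with Gcg, Chgb and Chga called higher. Tuft cell marker sums were 4296 to 8001 at 18 h and 2392 to 4316 in control, with Alox5 and Avil called higher among 5 tested. Goblet cell sums overlapped (123603 to 346496 and 208492 to 265248, Agr2 called higher of 7), as did Paneth cell sums (36481 to 77399 and 17930 to 75196, 0 of 8 called). Endothelial and stromal marker sums were low throughout, and lower at 18 h (14.4 to 34.5) than in control (62.3 to 79.7), with 0 of 2 tested genes called. The part of these marker levels in the member values was not tested.

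The 7 Ugt1a members are made from a single locus on chromosome 1 with separate first exons and shared later exons, so that 56.6% to 77.2% of the exon bases of each are also exon bases of other genes on the same strand. Reads from shared exons may have been dropped or split, and 28.9% of the exon bases of Ugt1a1 also overlap genes of the opposite strand. The counts of these members are uncertain for that reason. Ugt1a1 (ENSMUSG00000089960), the bilirubin-conjugating enzyme, was the only one of the 7 called at 18 h, against 2.69% of all genes called lower. It had 1229, 1254 and 1888 normalised counts in control, 596, 727 and 1044 in 18h-αGal and 1056, 1243 and 865 in 72h-αGal mice, and fell to 54.5% of control at 18 h (log2 fold change -0.88 ± 0.22, edgeR adjusted p of 0.0294). The Ugt1a1 call was lost without control replicate 1 or 3, 18h-αGal replicate 1 or 2, or 72h-αGal replicate 1 (edgeR adjusted p of 0.0516, 0.0604, 0.0958, 0.134 and 0.053). Ugt1a7c, the most abundant Ugt1a member per length (403 normalised counts per kb), had 2033, 1533 and 2541 normalised counts in control and 1323, 1382 and 2299 in 18h-αGal mice, which overlapped (log2 fold change -0.28 ± 0.25, edgeR adjusted p of 0.595). The log2 fold changes of the family at 18 h ran from -1.05 to 0.20.

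The carboxylesterases lie in 2 groups on chromosome 8, with Ces1 genes between 93892693 and 94063953 and Ces2 and Ces3 genes between 105460630 and 105789243 (GRCm39). At 18 h 4 of the 12 members were called lower, against 2.69% of all genes, and 8 lay below control without overlap, against 12.3%. The median log2 fold change of the 12 was -1.16. Ces1d (ENSMUSG00000056973), a lipase that acts on triacylglycerol and retinyl esters, had 213, 197 and 124 normalised counts in control, 29, 21.6 and 15.2 in 18h-αGal and 125, 98.8 and 177 in 72h-αGal mice. Each 18 h value lay far below each control value, and the 72 h values overlapped the controls. Its fall to 12.6% of control (log2 fold change -2.99 ± 0.39, edgeR adjusted p of 0.000621) was the largest fitted fall among the 57 members. Ces1e (ENSMUSG00000061959), which encodes egasyn, the protein that holds β-glucuronidase in the endoplasmic reticulum, had 996, 721 and 832 normalised counts in control, 403, 242 and 487 in 18h-αGal and 913, 850 and 854 in 72h-αGal mice. It fell to 44.4% of control at 18 h (log2 fold change -1.17 ± 0.22, edgeR adjusted p of 0.00579).

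Ces2 enzymes hydrolyse ester drugs and acylglycerols in the intestine. Ces2g (ENSMUSG00000031877) had 4529, 3559 and 4567 normalised counts in control, 2014, 1322 and 2227 in 18h-αGal and 2701, 3380 and 2043 in 72h-αGal mice. It fell to 44.2% of control at 18 h (log2 fold change -1.18 ± 0.21, edgeR adjusted p of 0.00678), and its 72 h libraries lay below the controls as well. Ces2b (ENSMUSG00000050097) had 80.5, 94 and 262 normalised counts in control, 7.57, 38.6 and 30.4 in 18h-αGal and 75.3, 133 and 32.4 in 72h-αGal mice, a wide spread in each group. It fell to 17.7% of control at 18 h (log2 fold change -2.50 ± 0.68, edgeR adjusted p of 0.0483), a call that 7 of the 9 fits without 1 library lost, those without any control or 18h-αGal library and that without 72h-αGal replicate 1 (edgeR adjusted p from 0.0605 to 0.107). Ces2e, the most abundant carboxylesterase per length (2475 normalised counts per kb), had 7882, 6298 and 13611 normalised counts in control and 4936, 4748 and 7797 in 18h-αGal mice. These overlapped, and the log2 fold change of -0.66 ± 0.33 was not called (edgeR adjusted p of 0.314).

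None of the other 8 carboxylesterases was called at 18 h (0 of 8 in edgeR). Ces1f, Ces1g and Ces2a, named here after their values were seen, lay at -1.21 ± 0.41, -1.58 ± 0.64 and -1.16 ± 0.40 on the log2 scale (edgeR adjusted p of 0.14, 0.165 and 0.15), and Ces2f and Ces2h lay at -0.24 ± 0.45 and 0.08 ± 0.69. Control values of Ces1g differed by 3.9-fold and those of Ces2f by 4.38-fold. Over the 12 members the summed level was 19731, 14964 and 28284 normalised counts in control, 9909, 8712 and 14535 in 18h-αGal and 14232, 17044 and 10076 in 72h-αGal mice. All 18 h sums lay below all control sums, and the 72 h sums lay among both groups.

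**Figure D2:**
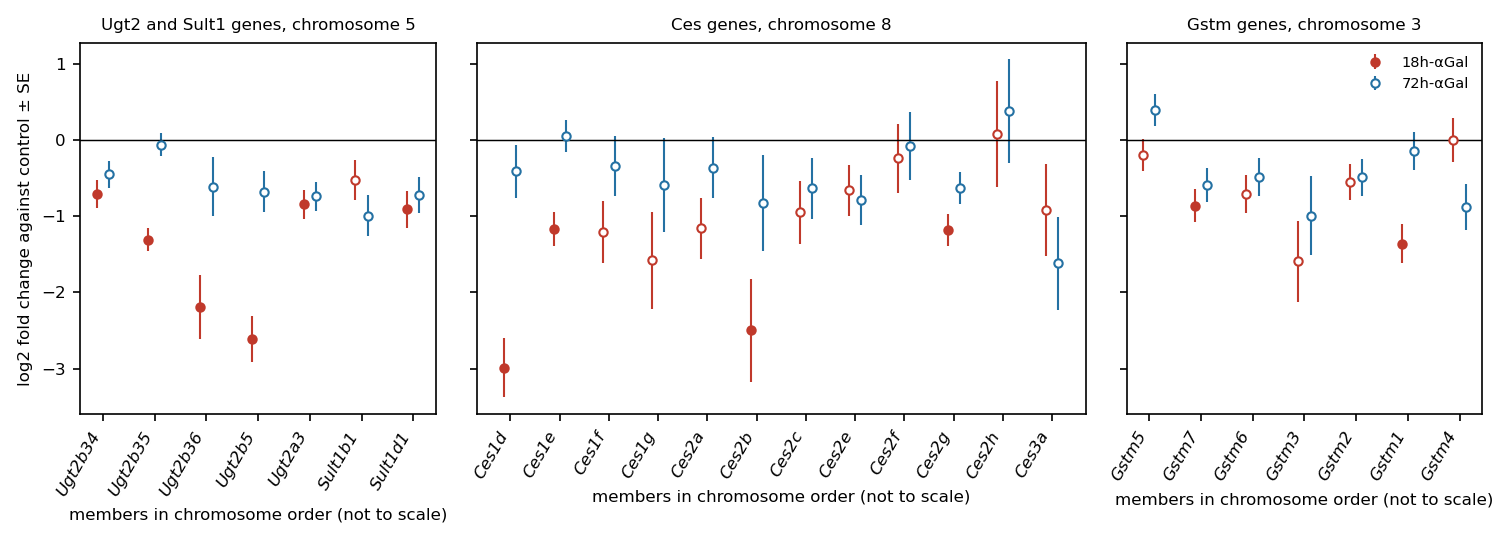
Log2 fold change against control (± SE, edgeR) of members in their order along chromosomes 5, 8 and 3 (GRCm39, not to scale), for 18h-αGal and 72h-αGal mice. Filled symbols are called; the values of the Ugt2 genes on chromosome 5 at 18 h run from -0.71 at Ugt2b34 to -2.61 at Ugt2b5 and -0.84 at Ugt2a3, while called and uncalled Ces and Gstm genes are interspersed.

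Of the 7 sulfotransferases 1 was called lower at 18 h, against 2.69% of all genes. Sult1d1 (ENSMUSG00000029273), which sulfates catecholamines and lies on chromosome 5 beyond the Ugt2 genes and Sult1b1, had 2271, 1909 and 2962 normalised counts in control, 972, 967 and 1859 in 18h-αGal and 1400, 1560 and 1325 in 72h-αGal mice. It fell to 53.4% of control (log2 fold change -0.91 ± 0.24, edgeR adjusted p of 0.0486). Leaving out 1 library ended this call in 7 of 9 fits, those without control replicate 1 or 3, 18h-αGal replicate 1 or 2, or any 72h-αGal library (edgeR adjusted p from 0.0705 to 0.167). Sult1b1, which sulfates phenols and thyroid hormones and is about as abundant per length (665 against 675 normalised counts per kb), had 2549, 1736 and 3647 normalised counts in control, 1791, 1408 and 2288 in 18h-αGal and 1333, 1565 and 1054 in 72h-αGal mice. Its 18 h values overlapped the controls (log2 fold change -0.52 ± 0.26, edgeR adjusted p of 0.303).

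Sult2b1, which sulfates cholesterol and other hydroxysteroids, had 587, 275 and 877 normalised counts in control, 1048, 815 and 1424 in 18h-αGal and 432, 425 and 232 in 72h-αGal mice. The 18h-αGal values were the highest of the 3 groups but overlapped the controls, and the log2 fold change of 0.94 ± 0.41 was not called (edgeR adjusted p of 0.23). Among the members with an estimate above 0 at 18 h, 11 of the 57, Sult2b1 and Gsta3 (0.97 ± 0.71) had the largest, Gsta3 on 3.8 to 55.2 normalised counts per library. The lowest estimate among the sulfotransferases was that of Sult1c2, -1.77 ± 0.68 (edgeR adjusted p of 0.144), with 29.4, 62.6 and 66.6 normalised counts in control, 13.9, 2.69 and 30.4 in 18h-αGal and 63.7, 54.5 and 66.2 in 72h-αGal mice.

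Glutathione S-transferases couple electrophiles to glutathione. Of the 6 Gsta members 1 was called lower at 18 h, against 2.69% of all genes. This was Gsta4 (ENSMUSG00000032348, chromosome 9 from 78090056 to 78117763 in GRCm39), which removes the lipid peroxidation product 4-hydroxynonenal. It had 887, 590 and 918 normalised counts in control, 252, 276 and 350 in 18h-αGal and 597, 805 and 366 in 72h-αGal mice. At 18 h it fell to 36.8% of control (log2 fold change -1.44 ± 0.26, edgeR adjusted p of 0.00546). Gsta1 had 530, 165 and 407 normalised counts in control, 142, 72.8 and 127 in 18h-αGal and 397, 349 and 95.7 in 72h-αGal mice. Its log2 fold change at 18 h of -1.68 ± 0.57 was not called (edgeR adjusted p of 0.127), but was in DESeq2 (adjusted p of 0.00719) and without 72h-αGal replicate 3 (edgeR adjusted p of 0.026). Gsta1 and Gsta13 share 91.8% and 94.1% of their 50-base words, most with each other, so their counts cannot be assigned with certainty. Gsta2, Gsta3 and Gsta5 were near the detection limit, with 5 libraries, 8 libraries and 3 libraries at 10 counts or more, and the estimates of the family at 18 h ran from -2.36 ± 1.29 (Gsta2) to that of Gsta3.

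The 7 Gstm members lie side by side on chromosome 3 between 107803137 and 107952210 (GRCm39). Of these, 2 were called lower at 18 h, against 2.69% of all genes. Gstm1 (ENSMUSG00000058135) had 2446, 1627 and 3326 normalised counts in control, 883, 1004 and 971 in 18h-αGal and 2658, 2444 and 1506 in 72h-αGal mice. It fell to 39% of control (log2 fold change -1.36 ± 0.26, edgeR adjusted p of 0.013), and the 72 h values overlapped the controls. Gstm7 (ENSMUSG00000004035) had 448, 386 and 635 normalised counts in control, 254, 244 and 301 in 18h-αGal and 380, 287 and 295 in 72h-αGal mice, and fell to 55% of control (log2 fold change -0.86 ± 0.22, edgeR adjusted p of 0.033). The Gstm1 call was lost without 18h-αGal replicate 1, 2 or 3 (edgeR adjusted p of 0.0551, 0.0643 and 0.0604). The Gstm7 call was lost without control replicate 1 or 3 or 18h-αGal replicate 1 or 2 (edgeR adjusted p of 0.0786, 0.09, 0.0935 and 0.133). Gstm3, the member with the highest level per length (3078 normalised counts per kb), has 21.9% of its 50-base words in other genes too. It had 8581, 4296 and 13487 normalised counts in control, 2817, 2479 and 3368 in 18h-αGal and 5398, 5725 and 1987 in 72h-αGal mice. All its 18 h values lay below its controls, which themselves differed by 3.14-fold, and the log2 fold change of -1.59 ± 0.53 was not called by edgeR (adjusted p of 0.15) and was by DESeq2 (adjusted p of 0.0202). The other 4 Gstm members lay at -0.71 ± 0.25 (Gstm6), -0.55 ± 0.24 (Gstm2), -0.20 ± 0.21 (Gstm5) and 0.00 ± 0.29 (Gstm4), with edgeR adjusted p from 0.111 to 0.996.

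The 13 members of the Gstp, Gstt, Gsto, Gstk, Gstz and Mgst families had a median log2 fold change of -0.06 at 18 h. By edgeR 0 of the 13 were called, against 5.96% of all genes in either direction. Gsto1, which reduces dehydroascorbate and mixed disulfides, had 3863, 4225 and 4978 normalised counts in control and 4156, 4141 and 4637 in 18h-αGal mice (log2 fold change -0.01 ± 0.11, edgeR adjusted p of 0.986). Mgst1, an enzyme of the endoplasmic reticulum and outer mitochondrial membrane, had 2029, 2144 and 2249 in control and 2006, 2653 and 2813 in 18h-αGal mice (log2 fold change 0.22 ± 0.13, edgeR adjusted p of 0.347). Gstt1 and Gstt3, which act on small halogenated compounds, lay at -0.06 ± 0.23 and 0.03 ± 0.17, Gstp1, which shares 31% of its 50-base words, most with Gstp2, at -0.29 ± 0.15, Gstp3 at -0.79 ± 0.26, Gsto2 at -0.66 ± 0.58, and Mgst2, which can make leukotriene C4, at -0.09 ± 0.23. Gstk1, of mitochondria and peroxisomes, lay at -0.07 ± 0.33, and Gstz1, the maleylacetoacetate isomerase of tyrosine breakdown, at -0.26 ± 0.13. Of the 13, Gstp3 came nearest to the threshold (edgeR adjusted p of 0.0935), with 291, 256 and 430 normalised counts in control and 156, 169 and 235 in 18h-αGal mice, which did not overlap. Summed over the 13, the level was 14658, 14196 and 17191 normalised counts in control and 13541, 14060 and 16670 in 18h-αGal mice, so that both groups overlapped.

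**Figure D3:**
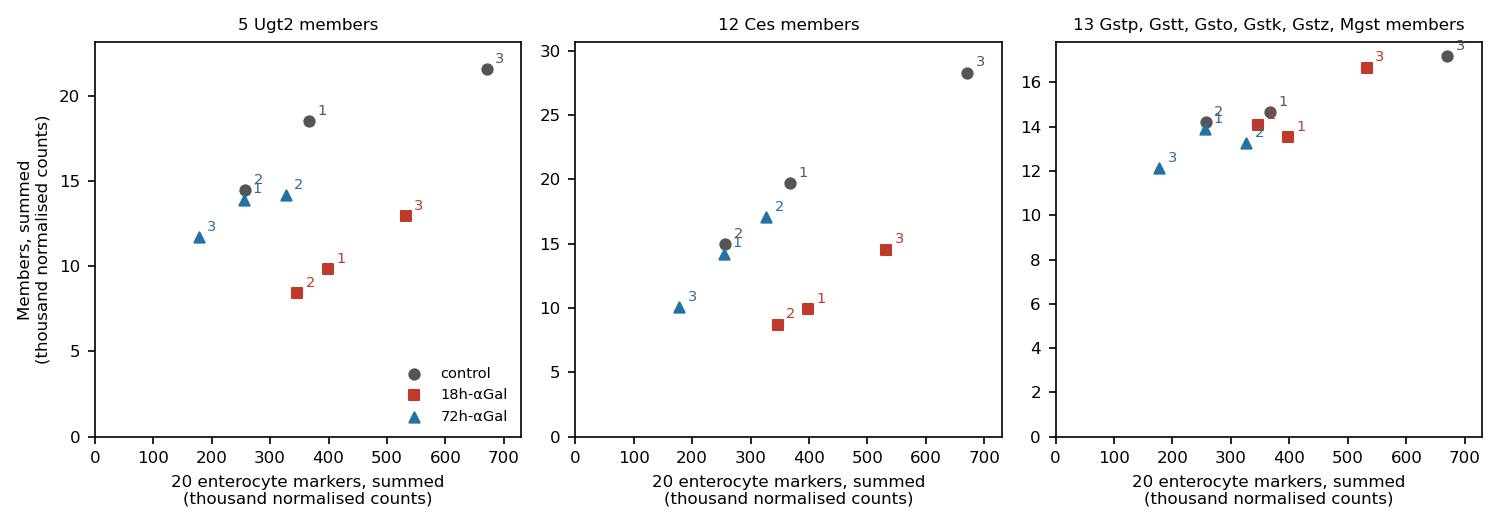
Summed normalised counts, drawn in units of 1000, of the 5 Ugt2 members, the 12 Ces members and the 13 Gstp, Gstt, Gsto, Gstk, Gstz and Mgst members against the summed level of 20 enterocyte markers in each library (numbers are replicates). For Ugt2 and Ces each 18h-αGal member sum lies below each control member sum, and in the third panel these groups overlap. The part of the marker levels in the member sums was not tested.

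The second comparison, 72h-αGal against control, asked whether members still differed later. Of the 57 members 0 were called by edgeR, against 0.0264% of all genes. For 14 members (24.6%) the unadjusted edgeR p was under 0.05, against 5.94% of all genes. DESeq2 called 1, Sult1b1, against 0.106% of all genes. For 13 members (22.8%) all 72 h libraries lay below all controls, against 6.3% of all genes, and for 2 members (3.51%) above, against 6.36%. The median log2 fold change was -0.38 for members and 0.00 for all genes. As at 18 h, 46 members (80.7%) had a fitted value below 0, against 49.7% of all genes. Beside these values, the enterocyte marker sums at 72 h (177735 to 326573) were lower than in 2 of the 3 controls, with a median log2 fold change of -0.77 over the 20 markers and 0 called. Enteroendocrine marker sums were also lower (4040 to 6305, against 8537 to 11806 in control), with Neurod1, Chgb, Tph1 and Chga called lower of 9. Their part in the member values was not tested.

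The smallest unadjusted p at 72 h was that of Gstt1, with 635, 669 and 796 normalised counts in control, 470, 566 and 974 in 18h-αGal and 379, 387 and 290 in 72h-αGal mice. Its 72 h values were 50.9% of control, a log2 fold change of -0.98 ± 0.24 (edgeR adjusted p of 0.53), called when no filter on low counts was used (edgeR adjusted p of 0.0346). Sult1b1 lay at -0.99 ± 0.27 (edgeR adjusted p of 0.714, DESeq2 adjusted p of 0.0306), Ugt2a3 at -0.74 ± 0.19 (edgeR adjusted p of 0.647) and Gstk1 at -0.99 ± 0.34 (edgeR adjusted p of 0.81), each with its 72 h libraries below all controls. Of the 14 members called at 18 h, 13 had a 72 h mean below the control mean, and for 8 the 72 h libraries overlapped the controls. These 14 were selected as low against the same 3 control libraries, which favours a 72 h mean below control in advance. Of all 57 members 46 (80.7%) had a fitted value below 0 at 72 h. Over all genes the 72 h libraries lay below all controls for 6.3% and above for 6.36%. The lowest estimate at 72 h was that of Ces3a, -1.62 ± 0.61 (edgeR adjusted p of 0.81), with 67, 60.7 and 54.7 normalised counts in control and 27.8, 24.2 and 7.36 in 72h-αGal mice. Among the 14, Ugt2b35 and Ces1e were closest to control, at -0.06 ± 0.15 and 0.05 ± 0.21.

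**Figure D4:**
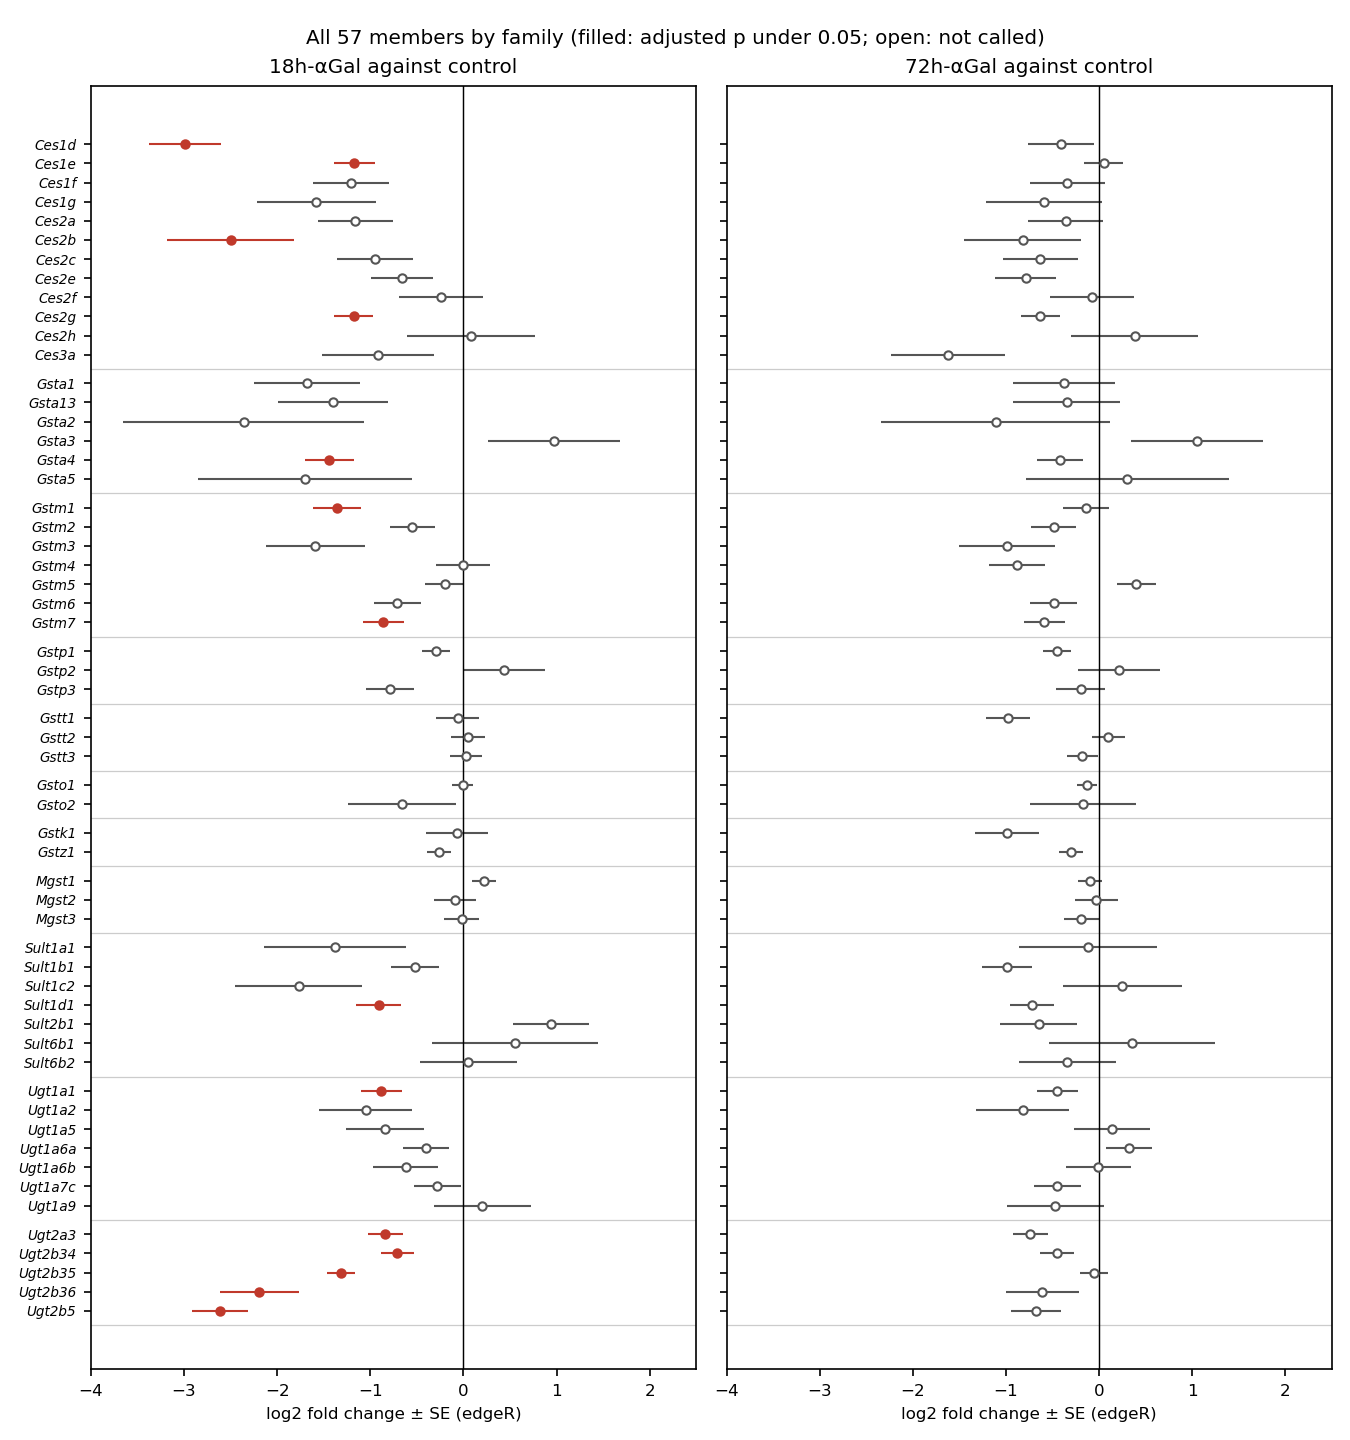
Log2 fold change against control (± SE, edgeR) of the 57 members, grouped by family, at 18 h (left) and 72 h (right). Filled points are called: 14 lie at or below -0.71 in the left panel, and the right panel has 0.

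The third comparison set the time points against each other, a direct test of whether the difference from control was the same at both. Of the 57 members 7 (12.3%) were called higher at 72 h than at 18 h, against 4.18% of all genes, and 2 (3.51%) lower, against 6.04%. Groups did not overlap for 12 higher members (21.1%, against 16.6% of all genes) and 4 lower members (7.02%, against 16.3%). The 12 include Gsta5, which had 10 counts in no 18h-αGal library. All 7 called higher, Ugt2b35, Ces1d, Ugt2b5, Ces1e, Gstm1, Gsta4 and Ugt2b36, were among the 14 that fell at 18 h, and the libraries that define the 18 h values enter both comparisons. From 18 h to 72 h Ces1d rose 5.99-fold (log2 fold change 2.58 ± 0.39, edgeR adjusted p of 0.00123), Ugt2b5 3.8-fold (1.93 ± 0.29, adjusted p of 0.00123), Ugt2b36 2.99-fold (1.58 ± 0.41, adjusted p of 0.0242) and Ugt2b35 2.38-fold (1.25 ± 0.15, adjusted p of 0.000257). Ces1e rose 2.33-fold (log2 fold change 1.22 ± 0.22, edgeR adjusted p of 0.00306), Gstm1 2.32-fold (1.21 ± 0.26, adjusted p of 0.0142) and Gsta4 2.03-fold (1.02 ± 0.26, adjusted p of 0.0225). Without 72h-αGal replicate 1 the count of calls was 5 in place of 9. That fit called 5.47% of all genes in either direction, against 10.2% with all 9 libraries.

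For the other 7 of the 14 the change between the time points was not called. Ugt2a3, Sult1d1, Ugt2b34 and Gstm7 had small estimates of 0.09 ± 0.19, 0.19 ± 0.24, 0.26 ± 0.18 and 0.28 ± 0.22, Ugt1a1 and Ces2g lay at 0.43 ± 0.22 and 0.55 ± 0.21, and Ces2b at 1.68 ± 0.67. The 2 members called lower at 72 h than at 18 h were Gstt1, at 53% of its 18 h level (log2 fold change -0.91 ± 0.24, edgeR adjusted p of 0.0231), and Sult2b1, at 33.2% (-1.59 ± 0.41, edgeR adjusted p of 0.0435), neither of which passed edgeR's test against control at either time among the 18933 genes. Leaving out single libraries ended 5 of the 9 calls. Ugt2b36 lost its call without 18h-αGal replicate 1 or 3 or any 72h-αGal library (edgeR adjusted p from 0.0515 to 0.087), Gstm1 without 18h-αGal replicate 1, 2 or 3 (0.0562, 0.058 and 0.071), and Gsta4 without 18h-αGal replicate 1 or 2 or 72h-αGal replicate 1 or 2 (0.0818, 0.0938, 0.0703 and 0.11). Gstt1 lost it without 18h-αGal replicate 3 or 72h-αGal replicate 1 or 3 (edgeR adjusted p of 0.106, 0.061 and 0.117), and Sult2b1 without control replicate 1 or any 18h-αGal or 72h-αGal library (0.0675 to 0.139).

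The other genes of the pathway, 53 in a list of cofactor supply, other conjugating or hydrolysing enzymes, regulators and exporters of which 48 were tested, included calls in both directions. At 18 h 2 of the 48 were called higher and 3 lower, against 619 (3.27%) and 509 (2.69%) of all 18933 genes. The median log2 fold change of the list was 0.06. At 72 h 0 of the 48 were called by edgeR (0.0264% of all genes). Between the time points 1 of the 48 was called higher and 6 lower, against 792 (4.18%) and 1144 (6.04%) of all genes. Calls this few allow no statement that the list differed from all genes. Gsr, the glutathione reductase, rose from 4557 ± 620 (SD, n = 3) to 8295 ± 646 normalised counts at 18 h (log2 fold change 0.87 ± 0.13, edgeR adjusted p of 0.00152), and G6pdx, which supplies the NADPH that Gsr uses, from 1535 ± 79.5 to 2720 ± 127 (0.83 ± 0.12, adjusted p of 0.00106). At 72 h they were at 4699 ± 714 and 1639 ± 185, and both were lower than at 18 h (log2 fold change -0.81 ± 0.13 and -0.72 ± 0.12, edgeR adjusted p of 0.00165 and 0.00181). The esterases Aadac and Bche fell at 18 h, from 1760 ± 284 to 1103 ± 241 (log2 fold change -0.67 ± 0.16, edgeR adjusted p of 0.0228) and from 8088 ± 917 to 4892 ± 1397 normalised counts (-0.72 ± 0.17, adjusted p of 0.0217).

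Among regulators, Nr1h4, the bile acid receptor FXR, fell from 869 ± 226 to 438 ± 84.4 normalised counts at 18 h (log2 fold change -0.98 ± 0.26, edgeR adjusted p of 0.04). Nfe2l2, which encodes NRF2 (0.19 ± 0.17, adjusted p of 0.583), the xenobiotic receptors Nr1i2 (-0.17 ± 0.15, adjusted p of 0.573) and Nr1i3 (-0.24 ± 0.41, adjusted p of 0.804) and the NRF2 target Nqo1 (0.17 ± 0.23, adjusted p of 0.754) were not called by edgeR at 18 h. Of the cofactor genes, Gclc, for glutathione synthesis, lay at -0.32 ± 0.13 (adjusted p of 0.18), Ugdh, which makes UDP-glucuronic acid, at 0.32 ± 0.20 (adjusted p of 0.425) and Papss2, which makes the sulfate donor, at 0.28 ± 0.40 (adjusted p of 0.763). Between the time points Ugp2 (-0.75 ± 0.13, edgeR adjusted p of 0.00302), Ugdh (-0.76 ± 0.20, adjusted p of 0.0354) and Hnf4g (-0.68 ± 0.19, adjusted p of 0.043) were lower at 72 h, and the conjugate exporter Abcc3 was higher (0.77 ± 0.21, adjusted p of 0.0397).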

How the data were processed

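RNA from 9 mice was sequenced by the authors from ribosomal RNA-depleted directional libraries as 100 bp reads. The methods name HISAT2 and the build GRCm39, while the submitters' processing notes list GRCm38 (mm10), HISAT2, featureCounts of Subread and DESeq2 1.42.0, so the build and the annotation release are uncertain, and the strand setting is not given in the sources used here. The authors deposited raw read counts for 29288 genes and a normalised signal, which equalled the count divided by 1 DESeq2 size factor per library (largest relative difference 3.33e-16) with no correction for length. It is called the normalised count here. Of the identifiers, 28480 (98.4% of counts) matched GENCODE vM39, from which symbols and GRCm39 positions were taken, and 808 did not. A floor of 3 counts was 0.0917 to 0.338 CPM, which covers counting error only.

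Raw counts were tested with edgeR 4.0.16 in R 4.3.3 (filterByExpr, TMM, robust quasi-likelihood fit of 3 group means over all 9 libraries), with p-values adjusted by Benjamini-Hochberg over all 18933 genes tested and a threshold of 0.05. The procedure was run on counts simulated with 1 common spread for all genes, so that run does not cover genes that differ in spread. SE were derived from the F statistic. Alternatives were DESeq2 1.42.0, limma-trend (limma 3.58.1) on log2(normalised count + 1), RLE and upper-quartile factors, no filter, a filter of 10 counts in 3 libraries, only the groups compared, a replicate block, a log2 fold change of 1 or more in size, and leaving out each library. Promoter windows are those of RefSeq (GRCm38.p6), available for 48 of the 57 members and not for Gsta4, Gsta13, Ugt1a6b, Gstt2, Ces3a, Ces1f, Ces1d, Ces2b and Gsta5.

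The members and lists were chosen with earlier results of these data known. Named members are those called in any comparison and the 2 of each family with the highest level per kb of exon; named pathway genes are those called in any comparison and 7 others (Nfe2l2, Nr1i2, Nr1i3, Nqo1, Gclc, Ugdh, Papss2). 1 pathway gene and 1 promoter motif are not reported here. The few other names are for members listed by family, low in counts, or chosen after their values were seen. Shared 50-base words were counted between GENCODE transcripts of different genes. P-values measure the spread between mice of 1 experiment, and the labels give no batch.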

Additional observations from a re-analysis of the deposited data

Results flagged for a closer look

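For 9 members the difference between both time points was itself significant, in edgeR's test of 72h-αGal against 18h-αGal, which equals the test that their log2 fold changes against the shared controls differ. They were 15.8% of the 57 members, against 10.2% of all genes tested. Called higher were 12.3% of members (4.18% of all genes) and called lower 3.51% (6.04% of all genes). Ces1d (2.58), Ugt2b5 (1.93), Ugt2b35 (1.25) and Ces1e (1.22) were higher at 72 h on the log2 scale and kept this call under all 17 alternatives run for single genes. Ugt2b36 (1.58), Gstm1 (1.21) and Gsta4 (1.02) were also higher at 72 h, and Gstt1 (-0.91) and Sult2b1 (-1.59) lower, but each of these 5 lost the call when certain single libraries were left out, with an edgeR adjusted p of up to 0.087, 0.071, 0.11, 0.117 and 0.139. Gsta4 also lost the call with the replicate block, and Sult2b1 with upper-quartile factors, with no filter on low counts and with the replicate block. Beside these values, enterocyte marker sums were 346814 to 531875 at 18 h and 177735 to 326573 at 72 h, with a median log2 fold change of -0.69 over 20 markers and 0 called by edgeR. Stem cell marker sums were 15695 to 46631 and 62828 to 97609, with Axin2 called higher of 10, and enteroendocrine sums 12668 to 20335 and 4040 to 6305, with 6 of 9 markers called lower. Tuft cell sums were 4296 to 8001 and 2501 to 4117, with Trpm5 and Avil called lower of 5 tested. Their part in these results was not tested.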

How the results depend on the processing

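The 14 calls at 18 h became 9 when only the 2 groups compared were fitted and 9 when a log2 fold change of 1 or more in size was also required, and ranged from 7 to 14 when 1 library was left out. Of all genes the main fit called 5.96% in either direction, the fit of only the 2 groups 3.37% and the fold change rule 2.25%. Fits without 1 library called 2.16% to 7.66%. DESeq2 gave 16, RLE factors 12, and upper-quartile factors, no filter, the filter of 10 counts and limma-trend 14 each. These settings called 5.21% to 6.15% of all genes. At 72 h the count of 0 became 1 in DESeq2 and 1 with no filter, and stayed at 0 without each library. Of all genes DESeq2 called 0.106% there and the fit with no filter 0.0444%. Between the time points the 9 calls ranged from 5 to 10 without 1 library, with 12 in DESeq2 and 11 with no filter. The share of all genes was 10.2% in the main fit, 4.18% to 12.8% without 1 library, 8.52% in DESeq2 and 7.27% with no filter. No member's call changed direction. Ces1d, Ces1e, Ces2g, Gsta4, Ugt2b35, Ugt2b36 and Ugt2b5 kept their 18 h call under all 17 alternatives, while Ces2b and Sult1d1 lost it under 10, Gstm7, Ugt1a1 and Ugt2b34 under 6, Gstm1 under 4 and Ugt2a3 under 3; the cause was not tested. Upper-quartile factors moved the median of all genes from 0.05 to 0.123 between the time points, and DESeq2 placed it at -0.112 at 18 h.

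Same-numbered mice did not deviate together (correlations over genes from -0.15 to 0.115), and not every sample correlated best with its own number. With the replicate number as a block, 11 members were called at 18 h, 0 at 72 h and 7 between the time points. Of all genes this fit called 4.13%, 0.00528% and 7.24%. The smallest library, control replicate 3, held 8887861 counts, so that 3 counts were 7.13 normalised counts there, which limits statements on Gsta2, Gsta3 and Gsta5.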
